A study of Mus musculus with 6 samples.

Results

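Transcripts of respiratory complexes II to V, the part of the mitochondrial electron transport chain that follows complex I together with ATP synthase, were measured in mouse quadriceps muscle. The members were all genes whose symbol in the platform annotation marked them as succinate dehydrogenase subunits, ubiquinol-cytochrome c reductase subunits, cytochrome c1, cytochrome c, cytochrome c oxidase subunits 4 to 8, or Atp5 subunits of ATP synthase. This gave 48 of 18193 measured genes: 4 of complex II, 9 of complex III, cytochrome c itself, 17 under complex IV symbols and 17 of complex V. They were chosen by symbol, with a rule that used no measured value. Earlier results of these data were known when the rule was chosen.

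The study compared 3 Pofut1 knockout samples with 3 control samples, with 1 Affymetrix array each, all from C57/Bl6 mice of 2 months. Knockout mice had floxed Pofut1 together with a cre transgene under the skeletal alpha-actin promoter; controls had this transgene with wild-type Pofut1. Pofut1 encodes the enzyme that places O-linked fucose on EGF-like repeats, among them those of Notch receptors. The cre is driven by the promoter of a striated muscle gene, so deletion is directed to the muscle fibres, whereas RNA was taken from the whole tissue with its vessels, nerves, fat and resident immune cells. Whether each array stands for its own animal is not in the labels. The p-values below therefore measure only how far these samples scatter, which may be technical.

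Complex II passes electrons from succinate to ubiquinone, complex III passes them on to cytochrome c, complex IV hands them to oxygen, and complex V uses the resulting proton gradient to make ATP. All subunits of complex II are encoded in the nucleus, while complexes III, IV and V combine nuclear subunits with subunits encoded by mitochondrial DNA. Several complex IV subunits have a form made in heart and skeletal muscle and a form made throughout the body. Oxidative fibres hold more mitochondria than glycolytic fibres, and mouse quadriceps is a mostly fast muscle.

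The targeted gene and the condition of the arrays bear on every value below. Pofut1 read 220.1, 231 and 194 in knockout replicates 1 to 3, against 301, 379.8 and 90.6 in control replicates 1 to 3. The lowest value of all was thus in the array labelled control replicate 3, which went against its label (the sources used here do not say whether the probe set lies in the deleted part). That array correlated with the others at 0.940 to 0.945 over all genes, while the other 5 correlated with each other at 0.980 to 0.991. Its 3' over 5' intensity ratio for Gapdh, a measure of RNA integrity and cDNA length, was 10.5. Knockout replicate 2 had a ratio of 3.70, and the remaining 4 arrays had 1.73 to 1.97. Each group held 1 array with a female pattern of Xist and Eif2s3y, namely knockout replicate 2 and control replicate 2. Background was set at an intensity of 96.2, below which 95% of the values of genes of other tissues lay, and all 11 muscle fibre markers were above it. Markers of slow fibres varied widely, with summed intensities of 11447 to 17874 in knockout and 5021 to 16905 in control arrays. The lowest sum was in control replicate 1, where Myh7, the slow myosin heavy chain, read 85.9 and so below background.

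Sequences upstream of 3 complex IV genes are given because the values of paired muscle and body-wide subunit forms are compared below. They hold the 250 bases before the annotated start, taken from RefSeq on GRCm38.p6. Cox6a1, a body-wide form, lies at chr5:115348959-115349208 on the minus strand. The muscle form Cox7a1 lies at chr7:30183921-30184170 on the plus strand and the muscle form Cox8b at chr7:140900447-140900696 on the minus strand. Capitals mark matches to the NRF1 core GCGCNNGCGC, the site of a regulator of respiratory genes, and to the E-box CANNTG, the site of myogenic factors and many others, read on both strands.
Cox6a1: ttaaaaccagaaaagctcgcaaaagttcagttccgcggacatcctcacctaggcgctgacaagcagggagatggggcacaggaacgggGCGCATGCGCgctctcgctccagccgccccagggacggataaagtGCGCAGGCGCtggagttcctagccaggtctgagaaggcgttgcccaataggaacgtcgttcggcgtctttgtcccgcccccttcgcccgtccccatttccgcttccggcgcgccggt
Cox7a1: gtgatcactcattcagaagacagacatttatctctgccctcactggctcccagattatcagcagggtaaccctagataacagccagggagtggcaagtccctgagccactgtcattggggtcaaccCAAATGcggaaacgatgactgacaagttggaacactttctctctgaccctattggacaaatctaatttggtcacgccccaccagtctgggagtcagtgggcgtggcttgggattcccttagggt
Cox8b: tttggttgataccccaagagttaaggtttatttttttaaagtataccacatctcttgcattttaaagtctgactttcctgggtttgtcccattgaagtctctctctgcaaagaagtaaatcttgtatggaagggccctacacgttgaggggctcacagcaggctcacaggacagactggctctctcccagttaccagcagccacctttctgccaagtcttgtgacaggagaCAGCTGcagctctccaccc

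The Cox6a1 window held 2 matches to the NRF1 core and 0 E-boxes, and the Cox7a1 and Cox8b windows each held 0 NRF1 cores and 1 E-box. The body-wide forms Cox7a2 and Cox8a also had 0 NRF1 cores and 1 E-box each, so the matches did not divide muscle from body-wide forms. No window was found for Cox6a2, the muscle partner of Cox6a1. Promoters were found for 36 of the 48 members, some with more than 1 start, giving 39 windows. An NRF1 core was in 7 of them (17.9%), against 4.98% of 32851 windows of all genes. These were windows of Sdha, Sdhd, Cox6a1, Atp5c1, Atp5g2, Atp5h and Atp5k. The ETS core CCGGAAGT was in 3 windows (7.69%, against 2.88% of all), the CRE TGACGTCA in 2 (5.13%, against 1.55%) and an E-box in 24 (61.5%, against 66.2%). A match describes the letters only.

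No member passed the test between knockout and control muscle. Limma with Benjamini-Hochberg adjustment over all genes called 0 of the 48 members and 0 of all genes (0.0%), with an adjusted p of 0.971 at the lowest. Of the members, 30 had lower and 18 had higher mean log2 values in the knockout, with a median log2 fold change of -0.03, against -0.01 over all genes. The 30 were 62.5% of the members, against 53.7% of all genes and 45.9% of genes above background. By complex the median was -0.06 for II, -0.13 for III, -0.02 for IV and -0.03 for V, and the single value of cytochrome c was 0.03. Without knockout replicate 2 the median of complex III was -0.02 and that of complex V was 0.02. With the mean of each gene's probe sets the median of complex III was -0.06, which was the value of Uqcrq. That mean took in probe sets below background. At an unadjusted p under 0.05 there was 1 lower member, Atp5d, against 1.57% of all genes, and 0 higher members, against 1.0% of all genes. In 3 members (6.25%), Sdhb, Cyc1 and Atp5d, all knockout values lay below all control values, against 5.68% of all genes. In 0 members did they all lie above, against 3.33% of all genes. The shares of members called and of groups without overlap were near those of all genes.

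The intervals describe differences in measured intensity, given the scatter of these arrays, which may be technical. In mean level, 42 of the 48 members lay above the 90th percentile of all genes, and 27 lay in the top 1%. Whether intensity still follows RNA amount at such levels was not tested. Of the 45 members whose mean over the arrays was above background, 37 had a 95% confidence interval that stayed within a 1.5-fold change in either direction, and 44 stayed within a 2-fold change. The exception was Atp5g2. Without the array labelled control replicate 3 the number called stayed at 0, the median over the members was -0.05, and that of complex II was 0.04. In that fit 31 of 48 (64.6%) had lower values, against 52.0% of all genes and 64.0% of genes above background. Without knockout replicate 2, 25 of 48 (52.1%) had lower values, with a median over the members of -0.0019. The shares were 57.2% of all genes and 44.6% of genes above background. Without both arrays, 22 of 48 (45.8%) had lower values, against 55.0% of all genes and 60.9% of genes above background.

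**Figure D1:**
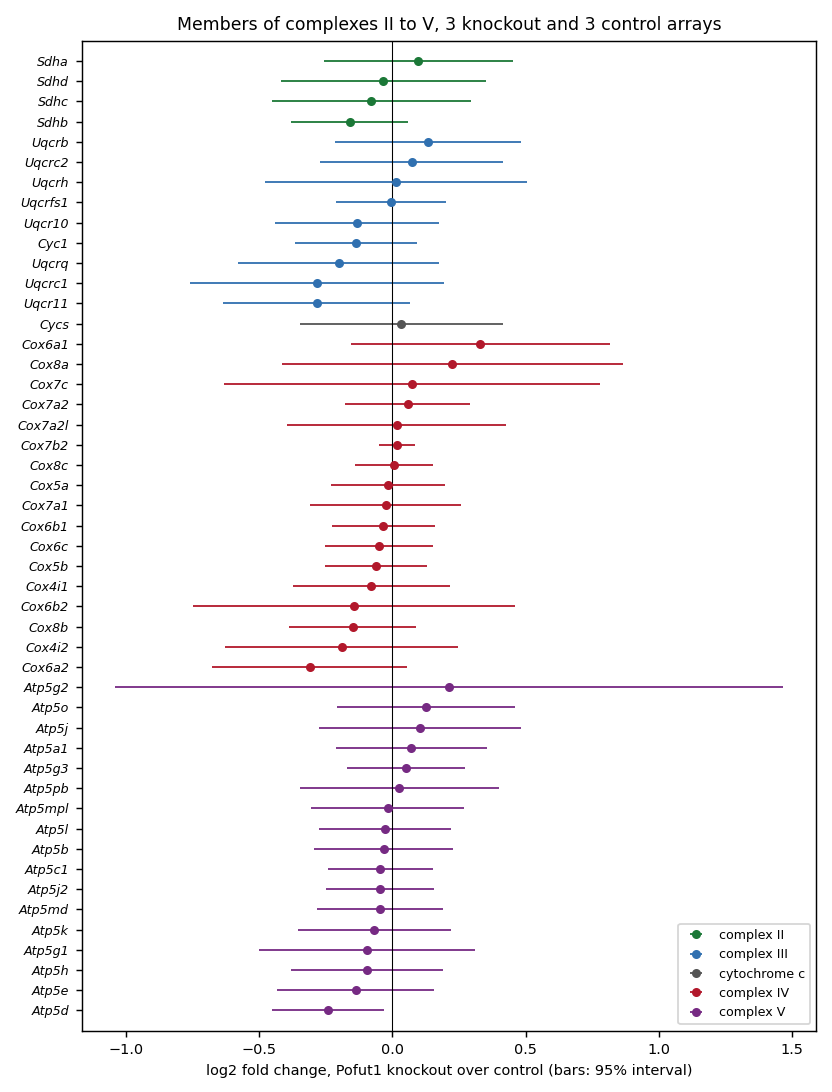
Log2 fold change of each of the 48 members (y axis, italic gene symbols grouped and coloured by complex), knockout over control, from limma on 3 and 3 arrays; points are estimates and bars 95% intervals. All intervals but that of Atp5d include 0, and that of Atp5g2 is the widest.

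Among the members of complex II, Sdhb had the most separated values. It encodes the iron-sulphur subunit that carries electrons from the flavoprotein to ubiquinone. It read 3482, 3198 and 3400.4 in knockout arrays (replicates 1 to 3, as in all lists of values below), against 3729, 3737 and 3793 in control arrays. All knockout values were thus lower, by a log2 fold change of -0.16 ± 0.09 (SE), and a two-sided exact permutation test gave p = 0.1, the smallest that 3 against 3 allows. The limma adjusted p was 0.971.

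Sdha, the flavoprotein that oxidises succinate, read 5129, 6624 and 5619 in knockout and 4948, 4901 and 6424 in control arrays. Its highest values were in knockout replicate 2 and control replicate 3, and the groups overlapped (log2 fold change 0.10 ± 0.15). Sdhc and Sdhd encode the membrane anchor that holds the haem and the ubiquinone site. Sdhc read 1974, 1428 and 1812 in knockout arrays, against 1638, 1946 and 1886 in controls. Sdhd read 2200.3, 2352 and 2200.3 in knockout arrays, against 1962, 2150.5 and 2899 in controls. The groups overlapped in both genes, with log2 fold changes of -0.08 ± 0.16 for Sdhc and -0.03 ± 0.16 for Sdhd.

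In complex III 6 of 9 members (66.7%) had lower values in the knockout, against 53.7% of all genes, and 5 of 9 without knockout replicate 2, the lowest array in 6 of them. Uqcr11, a small accessory subunit, had the lowest fold change, with intensities of 2166, 1786 and 2523 in knockout and 2484, 2729 and 2602 in control arrays. Knockout replicates 1 and 2 lay below all controls, and knockout replicate 3 did not. The log2 fold change was -0.28 ± 0.15, and -0.155 without knockout replicate 2. Uqcrq, the ubiquinone-binding accessory subunit, read 2649, 2265 and 3174 in knockout and 3233, 3338 and 2685 in control arrays, a log2 fold change of -0.20 ± 0.16. The groups overlapped, and the value was -0.083 without knockout replicate 2. It was -0.056 with the mean of its probe sets, but all of these except the brightest were below background.

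The core subunit Uqcrc1 had the same log2 fold change as Uqcr11, but 1 array carried it. Its intensities were 1409, 1244 and 1483 in knockout arrays, against 1416, 1470.2 and 2249 in controls. The array labelled control replicate 3 alone stood high, and without it the log2 fold change was -0.07, against -0.28 ± 0.20 with all arrays. Cyc1, the haem-bearing subunit that reduces cytochrome c, read 3812, 3462 and 3749 in knockout and 4011, 3870.4 and 4225 in control arrays. Its groups did not overlap, and the log2 fold change was -0.14 ± 0.10 (exact permutation p = 0.1, limma adjusted p = 0.971). Uqcrfs1, the Rieske iron-sulphur protein, varied least over the arrays among members above background, at 4085 to 4274 in knockout and 4124 to 4238 in control arrays.

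The remaining complex III members had log2 fold changes of -0.13 to 0.13. Of these Uqcr10, a small accessory subunit, differed between its probe sets. Its brightest probe set gave -0.13 ± 0.13, whereas the other 2 gave -0.48 ± 0.17 and -0.39 ± 0.14. On the dimmest it read 883, 699 and 938 in knockout arrays and 1109, 1101 and 1286 in controls. All knockout values were lower on that probe set, with an unadjusted limma p of 0.0256 and 0 probe sets past adjustment over all of them. These dimmer probe sets were singled out after their values were seen.

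Cycs, the soluble carrier between complexes III and IV, read 4473, 4728 and 3810.2 in knockout and 3624, 3985 and 5195 in control arrays. The highest values of each group were in knockout replicate 2 and the array labelled control replicate 3. The log2 fold change was 0.03 ± 0.16, and without the array labelled control replicate 3 it was 0.18.

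Within complex IV the largest differences in each direction belonged to the 2 forms of subunit 6a. Cox6a2 is the form of heart and skeletal muscle, and Cox6a1 is the form of most other tissues. Cox6a2 read 5583, 4829.7 and 6172 in knockout and 6978, 8007 and 5684 in control arrays. Control replicates 1 and 2 lay above all knockout values and the array labelled control replicate 3 lay among them. The log2 fold change was -0.31 ± 0.16 with an unadjusted p of 0.0855 in limma, fitted across all genes, and an exact permutation p of 0.2. In the same fit without that array it was -0.44, with an unadjusted p of 0.0149, and without control replicate 2 it was -0.20 with all other arrays kept. Without the array labelled control replicate 3 the adjusted p was 0.802, and 2 of 48 members, Cox6a2 and Atp5o, had an unadjusted p under 0.05, against 5.99% of all genes.

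Cox6a1 lay the other way. It read 2269.9, 1815 and 3046 in knockout arrays, against 1931, 2026 and 1613 in controls. Knockout replicates 1 and 3 were above all controls and knockout replicate 2 was among them (log2 fold change 0.33 ± 0.21, adjusted p = 0.971 in limma). The value was 0.14 without knockout replicate 3 and 0.51 without knockout replicate 2.

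Within each array, the ratio of Cox6a2 to Cox6a1 separated the groups on the brightest probe sets. It was 2.46, 2.66 and 2.03 in knockout arrays and 3.61, 3.95 and 3.52 in control arrays. Since the brightness of different probe sets is not comparable, only the change of the ratio has a meaning. The mean log2 ratio was 1.24 ± 0.20 (SD, n = 3) in the knockout and 1.88 ± 0.09 in the control group, a difference of -0.64, with all knockout arrays lower. The exact two-sided permutation p was 0.1, the smallest possible, and 0.4 adjusted over the 4 isoform pairs examined. Leaving out any one array gave differences of -0.73 to -0.53. With the dimmer Cox6a1 probe set the difference was -0.50 and the groups again did not overlap. With the dimmer Cox6a2 probe set over the brightest one of Cox6a1 it was -0.49, the groups overlapped, and without the array labelled control replicate 3 it was 0.03. With the dimmer probe set of both genes the difference was -0.36, again with overlap, and 0.16 without that array. With the mean of each gene's probe sets it was -0.50 with overlap (exact permutation p = 0.3), and -0.26 without that array. Of these combinations, only those with the brightest probe set of Cox6a2 separated the groups. On its dimmer probe set Cox6a2 was highest in knockout replicate 2 (1169) and the array labelled control replicate 3 (1672).

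Markers of fat tissue shared with Cox6a1 their highest array, but not the order of the other arrays. Of 10 adipocyte markers 8 were measured, 5 of them above background, and their summed intensities were 9791 to 14806 in knockout and 10389.8 to 11309 in control arrays. Knockout replicate 3, the highest array for Cox6a1, also had the highest sum and the highest value of Adipoq, the adipocyte hormone adiponectin. The lowest sum was in knockout replicate 2, whereas Cox6a1 was lowest in the array labelled control replicate 3. Adipoq read 766, 335 and 1343 in knockout and 963, 549 and 195 in control arrays. The brown adipocyte genes Ucp1 and Cidea read 202 and 321 in knockout replicate 3 and were below background in the other 5 arrays. Their part in the Cox6a1 values was not tested. In whole tissue, more cells of a type and more RNA per cell cannot be told apart.

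**Figure D2:**
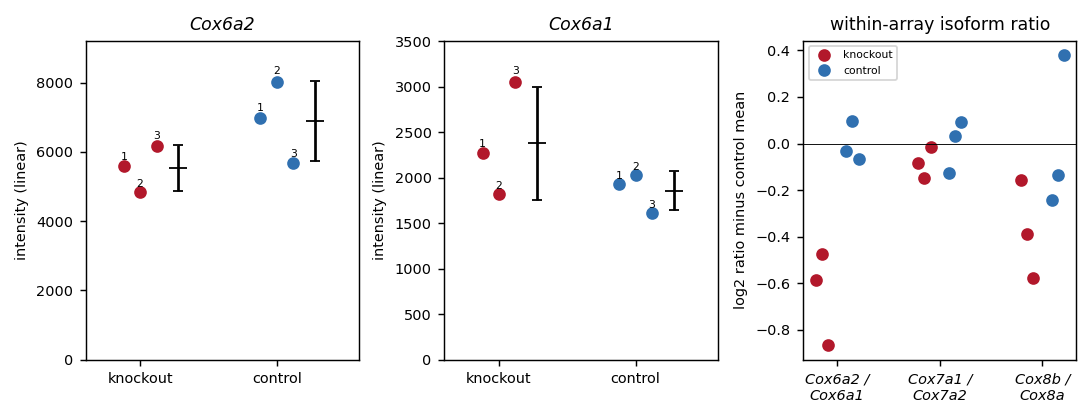
Linear intensities of Cox6a2 and Cox6a1 (left and middle; numbered points are replicates, bars mean ± SD of 3 arrays) and within-array log2 ratios of muscle over body-wide isoforms, each minus its control mean (right). The 3 knockout points of the Cox6a2 over Cox6a1 ratio lie below the 3 control points, while the groups overlap in the other 2 ratios.

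The other isoform pairs overlapped between groups. Cox8b, the muscle form of subunit 8, read 7385, 6482 and 7856 in knockout arrays and 8128, 8205 and 7691 in controls, with knockout replicate 3 among the controls (log2 fold change -0.15 ± 0.10, and -0.072 without knockout replicate 2). Its body-wide counterpart Cox8a read 206, 212 and 292 in knockout arrays, against 240.4, 225 and 148 in controls, and was highest in knockout replicate 3, the array with the highest adipocyte markers, whose part was not tested. The difference of their log2 ratio was -0.37 with all arrays (exact permutation p = 0.2). It was -0.18 once the array labelled control replicate 3 was left out.

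Subunit 7a showed little difference in either form. Cox7a1, the muscle form, read 2927, 2474 and 3075 in knockout and 2777, 2990.1 and 2822 in control arrays. Cox7a2, the body-wide form, read 8133, 7181 and 8133 in knockout and 7934, 7668 and 6924 in control arrays. Their log2 fold changes were -0.02 ± 0.12 and 0.06 ± 0.10, and the difference of their log2 ratio was -0.08 (exact permutation p = 0.3). For subunit 4, Cox4i1, the main form, read 3517, 2938 and 3819 in knockout arrays and 3545, 3749 and 3498 in controls (log2 fold change -0.08 ± 0.12). Cox4i2, a form known from lung, read 69.8 to 80.2 in knockout and 72.6 to 103 in control arrays, and its mean was below background.

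Other complex IV subunits differed little between the groups. Cox5a, Cox5b, Cox6b1 and Cox6c had log2 fold changes of -0.06 to -0.02, each with an SE under 0.1. For Cox5b, which binds zinc, the values were 10846, 9718 and 10656 in knockout and 11037, 10654 and 10863 in control arrays. Cox7b2 and Cox8c, forms known from testis, had means below background like Cox4i2, and the testis form Cox6b2 was close to it, at 91.1 to 112 in knockout and 90.7 to 148 in control arrays. Cox7c was measured only by dim probe sets, at 115 to 158 in knockout and 102 to 185 in control arrays, which says nothing of its abundance. Cox7a2l is not a fixed subunit of complex IV but a factor that joins complexes III and IV into supercomplexes. It read 2368, 1619 and 1998 in knockout arrays, against 2145, 2025 and 1701 in controls, a log2 fold change of 0.02 ± 0.17.

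In complex V one member stood apart, the delta subunit of the central stalk. Atp5d read 6616, 6418 and 6463 in knockout and 7619, 7219 and 8240.1 in control arrays. The knockout values lay close together and all below the controls. The log2 fold change was -0.24 ± 0.09, with an unadjusted limma p of 0.0292, an adjusted p of 0.971 and an exact permutation p of 0.1. Without the array labelled control replicate 3 it was -0.19, with an unadjusted p of 0.0589. The dimmer Atp5d probe set read 2842, 2418 and 3084 in knockout arrays and 2976, 3096 and 3038 in controls, so that the groups overlapped there.

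The epsilon subunit gene Atp5e, whose product sits beside delta in the stalk, read 7353, 5707 and 7249 in knockout arrays, against 7244, 7933 and 7034 in controls. Only knockout replicate 2 stood below the others (log2 fold change -0.14 ± 0.12). The peripheral stalk held Atp5o, which anchors the catalytic head, and Atp5h, its subunit d. Atp5o read 5499, 5735 and 5260.0 in knockout and 4311, 4836 and 6118 in control arrays. All knockout values lay above control replicates 1 and 2 and below the array labelled control replicate 3. The log2 fold change was 0.13 ± 0.14 with that array and 0.27 without it (unadjusted p = 0.0320 in limma, fitted across all genes). Atp5h read 5648, 4728 and 5611 in knockout arrays and 5117, 5699.7 and 6262 in controls, a log2 fold change of -0.10 ± 0.12.

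The c subunit of the rotor ring is encoded by 3 genes that yield the same mature protein, and they differed in how they varied. Atp5g1 read 4905, 3924 and 5317 in knockout and 5534, 5551 and 4059 in control arrays. Atp5g2 read 2477, 1566 and 3082 in knockout and 2960.2, 3129.8 and 829 in control arrays. Both were lowest in knockout replicate 2 and the array labelled control replicate 3. Atp5g3 read 7076, 7778 and 7436 in knockout and 6740.1, 7043 and 7759.7 in control arrays, and its highest values were in those same 2 arrays. Their log2 fold changes were -0.10 ± 0.17, 0.21 ± 0.53 and 0.05 ± 0.09 in this order, and that of Atp5g2 was -0.41 without the array labelled control replicate 3. The other members of complex V, among them the catalytic subunit genes Atp5a1 and Atp5b, had log2 fold changes of -0.07 to 0.10.

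**Figure D3:**
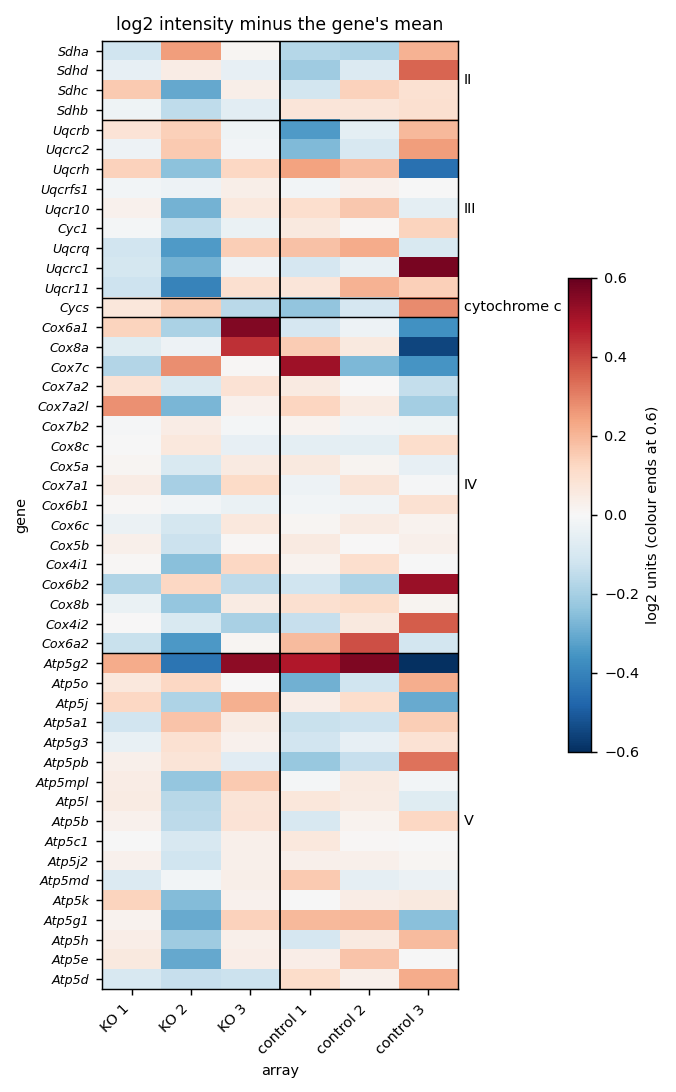
Log2 intensity of each member minus its own mean over 6 arrays, with knockout replicates left and control replicates right of the line and complexes separated by horizontal lines; colours end at 0.6 log2 units. Knockout replicate 2 is the lowest of the 6 arrays in 26 of the 48 members, and control replicate 3 departs in both directions.

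Patterns of single arrays ran through the members. Knockout replicate 2 was the lowest of all arrays in 26 of 48 members, or 54.2%, against 13.9% of all genes and 16.4% of genes above background. The median deviation of the members above background from their own means was -0.15 there, against -0.02 for all genes above background in that array. In the other 5 arrays the members' median deviations were 0.01 to 0.03. This array thus lowered the mean of the knockout group.

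The second pattern joined knockout replicate 2 with the array labelled control replicate 3, the 2 arrays with high 3' over 5' ratios. In 11 members both lay above the other 4 arrays and in 14 both lay below, or 22.9% and 29.2% of the members, against 18.7% and 15.3% of all genes and 8.37% and 24.3% of genes above background. The higher ones included Sdha, Sdhd, Uqcrb, Uqcrc2, Cycs, Atp5a1, Atp5o and Atp5pb. The direction could differ between probe sets of 1 gene. Of 26 members with more than 1 probe set above background, 8 had 1 probe set high and another low in both arrays: Sdha, Sdhd, Uqcrb, Cycs, Cox5a, Atp5a1, Atp5o and Atp5pb. For Cycs, the next brightest probe set read 3715, 2628 and 3586 in knockout and 3571, 3566 and 2951 in control arrays, low in both arrays where the one given above was high. The part of cDNA length in these values was not tested.

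**Figure D4:**
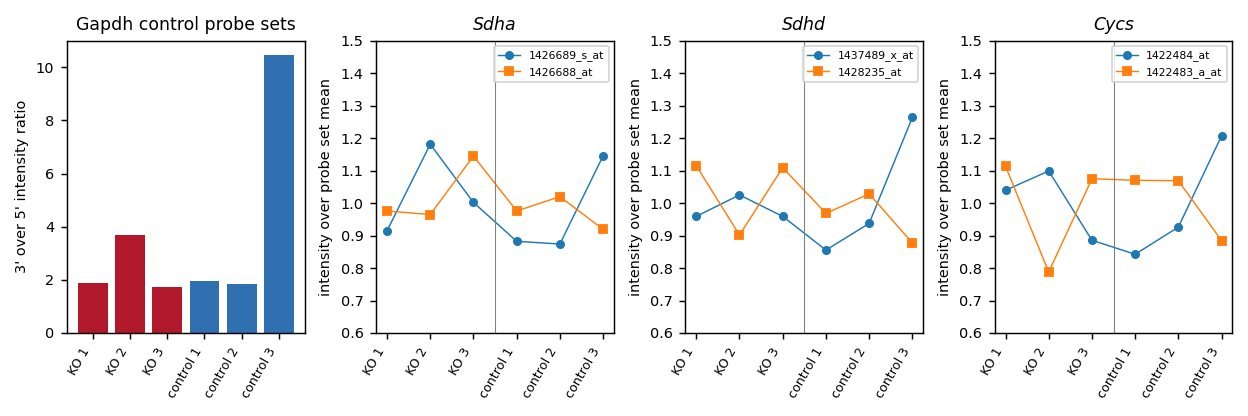
Gapdh 3' over 5' intensity ratio by array (left, red knockout and blue control bars) and, for Sdha, Sdhd and Cycs, 2 probe sets each as intensity over the probe set's own mean in every array. In knockout replicate 2 and control replicate 3, where the Gapdh ratio is 3.70 and 10.5, the 2 probe sets of each gene part in opposite directions.

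Control replicate 1, with the lowest slow fibre markers, was the lowest array in 8 of the 48 members (16.7%), against 12.2% of all genes. Above background the shares were 17.8% of members and 8.54% of genes. All 8 were among the 11 members above that were high in both arrays of high 3' over 5' ratio. One of them was Uqcrb, a subunit near the ubiquinone site of complex III, which read 5606, 5860.0 and 5205 in knockout arrays and 4190.3, 5093 and 6072 in controls. Its other probe set read 3845, 3287 and 4014 in knockout arrays and 3556, 3951 and 3299 in controls, and was not lowest in control replicate 1. The part of fibre type in these values was not tested.

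Genes that build the complexes were set beside the members. Of 40 listed assembly factors 37 were measured, of which 25 had lower and 12 higher values in the knockout, with a median log2 fold change of -0.13, against -0.01 over all genes. In 9 of them (24.3%) all knockout values lay below all controls, against 5.68% of all genes and 7.51% of genes above background. Without knockout replicate 2, 21 of 37 had lower values (56.8%), with a median of -0.05, against 57.2% of all genes. Genes above background were lower in 44.6% of cases there, with a median of 0.03. Without the array labelled control replicate 3, 29 of 37 (78.4%) had lower values, with a median of -0.14. In that fit genes above background were lower in 64.0% of cases, with a median of -0.07. Without both arrays 30 of 37 (81.1%) had lower values, against 60.9% of genes above background. None of the 37 passed the adjusted threshold in limma, and 4 (10.8%) had an unadjusted p under 0.05, all lower, against 1.57% of all genes.

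Uqcc1, which supports synthesis and assembly of cytochrome b for complex III, read 472, 439 and 494 in knockout and 697, 612 and 660.0 in control arrays. The log2 fold change was -0.49 ± 0.15 with an unadjusted limma p of 0.0126, and it was -0.48 without the array labelled control replicate 3. Bcs1l, which inserts the Rieske protein into complex III, read 1002, 1300.1 and 1124 in knockout arrays and 1451, 1408 and 1769 in controls. Its log2 fold change was -0.43 ± 0.16, and all knockout values were again lower. The other 2 were complex IV factors, named after their values were seen. Coa6 read 590.1, 640.0 and 595 in knockout arrays and 776, 747 and 821 in controls (-0.36 ± 0.13), and Cmc2 read 1257, 1157 and 1319 in knockout arrays and 1558, 1449.9 and 2309 in controls (-0.48 ± 0.20, and -0.27 without the array labelled control replicate 3). Sco1, a copper carrier for complex IV, was also singled out for its values: it read 916, 139.9 and 134 in knockout and 111, 94.2 and 99.5 in control arrays. Its knockout values all lay above the controls, as in only this 1 of the 37 factors, against 3.33% of all genes. The Sco1 controls lay near the background of 96.2, with control replicate 2 below it. The size of the mean Sco1 difference rested on knockout replicate 1.

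Enzymes of the tricarboxylic acid cycle, which feed electrons to the chain, had values on both sides. Of 12 measured, 5 had lower and 7 higher values, with a median log2 fold change of 0.03 and 0 at an unadjusted p under 0.05. Fh1, fumarate hydratase, had -0.18 ± 0.12, and Idh3a, a subunit of isocitrate dehydrogenase, had 0.14 ± 0.10 with all knockout values above all controls. Of 14 regulators of mitochondrial biogenesis 6 had lower and 8 higher values, with a median of 0.03 (-0.04 without the array labelled control replicate 3) and 0 at an unadjusted p under 0.05. Tfb1m, which modifies the mitochondrial ribosomal RNA, read 243, 249 and 195 in knockout and 295, 285 and 303 in control arrays, so that all knockout values were lower (-0.37 ± 0.19). Yy1, a regulator with many targets, had 0.68 ± 0.38, with all knockout values above all controls. It read 514 in the array labelled control replicate 3, against 1335 and 1401 in the other controls, and without that array its log2 fold change was 0.21.

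The genes whose profile over the 6 arrays was most like the median profile of the members followed the dip of knockout replicate 2. Of 8984 other genes above background they were Atf4, Itgb1bp2, Mrpl51, Prdx2 and Eif3e, with Pearson correlations of 0.975 to 0.989 over 6 arrays. Atf4, a transcription factor of the stress response, read 1637, 1059 and 1809.6 in knockout arrays, against 1703, 1732 and 1579.7 in controls. The correlation is a description of these arrays, which share their amplification and normalisation.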

How the data were processed

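Total RNA of quadriceps was amplified and labelled as biotinylated cDNA with the Ovation system, per the labels' protocols. The authors deposited probe set intensities on a linear scale, from 37.2 to 16069. Per the submitters' processing notes they used GCOS and RMA, with no versions, and the sources used here name no scaling after RMA. Array medians were 56.6 to 58.6 and upper quartiles 146 to 182, so the distributions were not made identical.

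Of 45101 probe sets 34945 had 1 gene symbol, control probe sets left out. Each gene was represented by its probe set with the highest mean over the 6 arrays. Background was the 95th percentile of 42 genes of other tissues, an intensity of 96.2. The test was limma (version 3.58.1, under R 4.3.3) on log2 intensities, with group as the only term, a mean-variance trend and Benjamini-Hochberg adjustment over 18193 genes (threshold 0.05). It was tested on simulated data. Single values had an exact permutation test, with 0.1 as the smallest p. The number of arrays limits the precision.

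Members, gene lists, rules and alternatives were chosen with earlier results of these data known. Named with values were all members of complex II, Cyc1, Cycs, the isoform and c subunit genes, the 4 members of complexes III, IV and V with the smallest p above background, and the 2 of each related list. Further members, second probe sets and the array patterns were named after their values were seen. Genes of mitochondrial DNA were not analysed here.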

Additional observations from a re-analysis of the deposited data

How the results depend on the processing

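The counts of genes and of members past the adjusted threshold were 0 under all 18 alternatives. At an unadjusted limma p under 0.05 between 0 and 6 members were found. The 6 came with the 3' over 5' ratio as a covariate, where 1169 of 18193 genes were found. Array weights gave 4 members and 1854 of all genes. The lowest adjusted limma p was 0.0578 over all genes and 0.340 among the members, both with array weights. Those weights gave the array labelled control replicate 3 a weight of 0.105. All values below are log2 fold changes, knockout over control, and the causes of these shifts were not tested. The median of complex II was 0.091 with array weights and 0.091 without both arrays of high 3' over 5' ratio, against -0.06, and that of complex V was 0.059 without both, against -0.03. With array weights the sign also turned for Atp5g2 (-0.21), Atp5h (0.042), Cox7a1 (0.032), Sdhc (0.064) and Sdhd (0.12), and with the mean of probe sets for Sdhd (0.041). With the 3' over 5' ratio as a covariate it turned for Atp5g2 (-0.21) and Sdhd (0.066). Without the array labelled control replicate 3 and with the sex pattern as a covariate it turned for Atp5g2 (-0.485), Cox7a2 (-0.020), Cox8a (-0.021) and Sdhd (0.15). Without both arrays of high ratio, an alternative chosen after seeing the data, it turned for Atp5g2 (-0.14), Atp5h (0.060), Cox4i1 (0.0075), Cox7a1 (0.058), Sdhc (0.083), Sdhd (0.099) and Uqcrc1 (0.0028). Leaving out 1 array at a time gave ranges that crossed 0 for Atp5g1 (-0.24 to 0.032), Atp5g2 (-0.41 to 0.55), Cox4i1 (-0.16 to 0.027), Cox7a1 (-0.089 to 0.068), Cycs (-0.075 to 0.18), Sdha (-0.0033 to 0.23), Sdhc (-0.18 to 0.057), Sdhd (-0.15 to 0.13) and the ratio of Cox4i2 to Cox4i1 (-0.22 to 0.043). For single members 244 other values kept their sign under the remaining alternatives and 132 when 1 array was left out. With the replicate block the median over the members stayed at -0.03. There 0 members and 377 of 18193 genes had an unadjusted limma p under 0.05. Same-numbered samples deviated with correlations of 0.19, -0.15 and -0.11, so the numbers were not taken to pair them.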
